A study of Mus musculus with 8 samples.

Results

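The 6 transcripts described here encode inhibitors of mTORC1, the kinase complex that drives protein synthesis when amino acids and insulin are plentiful, and were measured in the gastrocnemius, a calf muscle rich in fast fibres, of mice without Bcat2 and of wild-type mice. They were taken by gene symbol from the deposited expression table, where Ddit4, Ddit4l, Sesn1, Sesn2, Sesn3 and Deptor each had 1 row, so the group held 6 of 38741 distinct symbols. Ddit4l was chosen by its FPKM in these same mice, where all knockouts exceeded all wild-type mice, and its difference between genotypes is therefore given as a description, with no test. The other 5 were taken as functional relatives of Ddit4l, with earlier results of these data known. The group of 4 knockout mice was homozygous for the Bcat2tm1.2Clyn allele. The labels name no tissue restriction for it. The 4 wild-type mice carried no named allele. All 8 mice were males on a C57BL6 background that had free choice, as had their dams, between a chow and a purified diet lacking branched-chain amino acids. Body weight was 19.5 ± 4.20 g in knockouts, aged 10 to 11 weeks, against 24 ± 1.41 g in wild-type mice, aged 9 to 10 weeks (SD, n = 4 each). Knockout columns could not be tied to single labelled knockouts, so no weight or age could be set against a transcript.

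REDD1 and REDD2, the products of Ddit4 and Ddit4l, act on mTORC1 from upstream through the TSC complex, which switches off the GTPase Rheb. Sestrins bind GATOR2, the activator of the Rag GTPase branch that reports amino acids at the lysosome, and Sestrin2 is a leucine sensor that lets go of GATOR2 when leucine binds. DEPTOR binds mTOR itself. BCATm, the product of Bcat2, is the aminotransferase of mitochondria that begins branched-chain amino acid catabolism, and its loss is known to raise these amino acids in blood. The question was whether transcripts of these brakes on mTORC1 differ in muscle that cannot start that breakdown.

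The mice matched their labels at the targeted gene. Bcat2 read 2.89, 5.26, 2.91 and 2.09 FPKM in knockouts KO5 to KO8, against 83.0, 42.7, 46.0 and 41.2 FPKM in wild-type mice WT1 to WT4 (limma adjusted p = 0.00245). FPKM counts fragments per length of exon and per total of mapped fragments, so levels can be compared between genes. Summed FPKM per library ran from 721012 to 896190 in knockouts and from 691168 to 803465 in wild type, and depth relative to WT2 from 0.547 to 1.21 in knockouts and from 0.435 to 1.22 in wild type. Of 8 myofibre markers 7 had a row, and all 7 had a mean of at least 1 FPKM. They summed to 47715 to 59439 FPKM in knockouts and 47530 to 59363 FPKM in wild type. Of the 7, 2 had the higher mean in knockouts. Myh1 was at 0 in KO7 and at 60.9 to 108 FPKM in the other knockouts, against 110 to 245 FPKM in wild type. Adipocyte markers stood apart in KO6 and WT1. All 8 were detected and none was at 0 in any mouse; their sum was 8307 FPKM in KO6 and 1333 to 2037 FPKM in the other knockouts, against 15778 FPKM in WT1 and 623 to 744 FPKM in the other wild-type mice. Keratinocyte markers summed to 560 FPKM in KO6 and to 3.92 to 5.03 FPKM in the other knockouts, against 3.26 to 4.83 FPKM in wild type, with Krt14 at 0 in KO5, WT1, WT3 and WT4. In the mice other than KO6 and WT1 the adipocyte sums of the knockouts also lay above those of wild type. Schwann cell markers summed to 183, 126, 126 and 75.9 FPKM in KO5 to KO8, against 86.4, 51.2, 89.5 and 95.03 FPKM in WT1 to WT4. All 8 of them had the higher mean in knockouts and none was at 0 in all mice, and the sums overlapped through KO8. Of 8 endothelial and 8 fibroblast markers, 1 in each list had the higher mean in knockouts. Endothelial sums were 40.6 to 78.0 FPKM in knockouts and 59.3 to 106 FPKM in wild type. Fibroblast sums were 409 to 595 and 457 to 744 FPKM. Macrophage sums were highest in KO6, at 379 FPKM, and WT1, at 257 FPKM, and 3 of 8 markers had the higher mean in knockouts. The median difference of all tested genes was -0.12 on the log2(FPKM + 1) scale, and it became -0.00197 with median-ratio scaling. Differences are also given relative to it.

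The promoters of the genes that the results turn on are shown first, as the 250 bases before each RefSeq start, written 5′ to 3′ along the gene. Both REDD genes are given because all knockouts exceeded all wild-type mice, and both starts of Sesn1 because KO5 and KO6 were its highest mice, as they were for Ddit4. Capitals mark matches to the motifs named after the sequences.
Ddit4l (mm10, chr3:137623422-137623671, + strand): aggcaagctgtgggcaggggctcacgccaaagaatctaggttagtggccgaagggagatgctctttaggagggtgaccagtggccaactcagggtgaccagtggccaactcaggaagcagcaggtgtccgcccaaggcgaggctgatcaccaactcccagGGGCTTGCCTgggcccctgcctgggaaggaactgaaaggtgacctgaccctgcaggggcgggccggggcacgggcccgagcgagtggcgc
Ddit4 (mm10, chr10:59951771-59952020, - strand): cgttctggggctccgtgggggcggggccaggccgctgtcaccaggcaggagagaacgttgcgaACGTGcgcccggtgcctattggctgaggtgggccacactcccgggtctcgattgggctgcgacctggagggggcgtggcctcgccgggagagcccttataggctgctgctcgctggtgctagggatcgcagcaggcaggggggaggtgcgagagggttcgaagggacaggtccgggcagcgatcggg
Sesn1, upstream start (mm10, chr10:41810324-41810573, + strand): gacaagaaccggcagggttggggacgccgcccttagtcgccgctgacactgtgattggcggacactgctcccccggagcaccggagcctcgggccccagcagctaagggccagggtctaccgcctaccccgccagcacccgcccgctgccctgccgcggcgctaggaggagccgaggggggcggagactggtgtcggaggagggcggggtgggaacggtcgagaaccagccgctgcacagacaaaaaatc
Sesn1, downstream start (mm10, chr10:41887189-41887438, + strand): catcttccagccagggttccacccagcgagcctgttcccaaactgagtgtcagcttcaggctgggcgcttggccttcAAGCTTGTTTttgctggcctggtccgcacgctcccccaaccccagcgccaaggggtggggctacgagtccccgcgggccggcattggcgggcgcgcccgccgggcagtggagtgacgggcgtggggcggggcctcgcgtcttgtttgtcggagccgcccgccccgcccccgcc

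All 4 windows were rich in G and C, at 65.2% in Ddit4l, 70% in Ddit4, and 70% and 71.2% at the starts of Sesn1, against a median of 52.4% over 32851 RefSeq windows of the same length. CpG pairs numbered 10 in Ddit4l, 22 in Ddit4, and 23 and 24 in Sesn1, against a median of 6. Motifs were searched on both strands: TGATGNAA for the composite element of C/EBP and ATF factors (held by 3.45% of all windows), the palindromic response element of the glucocorticoid receptor, by name (0.387%), GTAAACA for FoxO factors (3.17%), ACGTG for hypoxia-inducible factors (16.6%), CACGTG as the E-box, which overlaps ACGTG (6.02%), and TATAAA (12.4%). The half-site of p53, searched by its usual degenerate pattern, was held by 7.13% of windows. Ddit4l held 1 match, a p53 half-site from 90 to 81 bases before the start. Its window begins at 137623422, inside the span of the gene, which begins at 137621612 in the deposited row and in GENCODE. The bases before that upstream end were not searched. In GENCODE both Sesn1 windows also lie inside their gene, which begins at 41809935. Part of the Ddit4 window lies inside its gene, whose upstream end on the - strand is 59951834 there. Ddit4 held 1 match, ACGTG from 187 to 183 bases before the start. Sesn1, known as a p53 target, held 1 match, a p53 half-site from 173 to 164 bases before its downstream start, and none at its upstream start. A match is a string of letters in the window and does not show that a factor binds there, and the absence of one says only that these letters are not in this window. RefSeq windows were found for 5 of the 6 genes, all but Deptor. The windows of Sesn2 and Sesn3, not shown, held 0 matches to any of these motifs. They too were rich in G and C, at 63.2% and 59.6%, with 18 and 16 CpG pairs.

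Ddit4l was the most abundant of the 6 transcripts in every mouse, and its knockout and wild-type values formed separate, narrow ranges. Ddit4l (ENSMUSG00000046818, mm10 chromosome 3, 137621612 to 137628333) read 823, 719, 863 and 625 FPKM in KO5 to KO8, against 452, 521, 335 and 488 FPKM in WT1 to WT4. Each knockout lay above each wild-type mouse, with 625 FPKM in KO8 as the nearest value to the 521 FPKM of WT2. The means were 757 ± 107 FPKM in knockouts and 449 ± 81.5 FPKM in wild type (SD, n = 4 each), a ratio of 1.69. The SD was 14.1% of the mean in knockouts, the smallest of the 6 transcripts there, and 18.1% in wild type, where Ddit4 (18.0%) and Deptor (15.9%) varied less. On the log2(FPKM + 1) scale the difference was 0.76, or 0.88 relative to the median gene. Separation of this kind, knockouts higher, was seen in 2.08% of the 11118 tested genes, and since this contrast is what drew attention to Ddit4l, nothing is read from it. Leaving out 1 mouse at a time gave differences of 0.63 to 0.85, and leaving out both KO6 and WT1 gave 0.79. The part of the adipocyte and Schwann cell transcripts in the Ddit4l and Ddit4 values was not tested. Among genes with a mean of at least 1 FPKM, 98.7% had a lower mean than Ddit4l, which ranked 143 from the top.

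**Figure D1:**
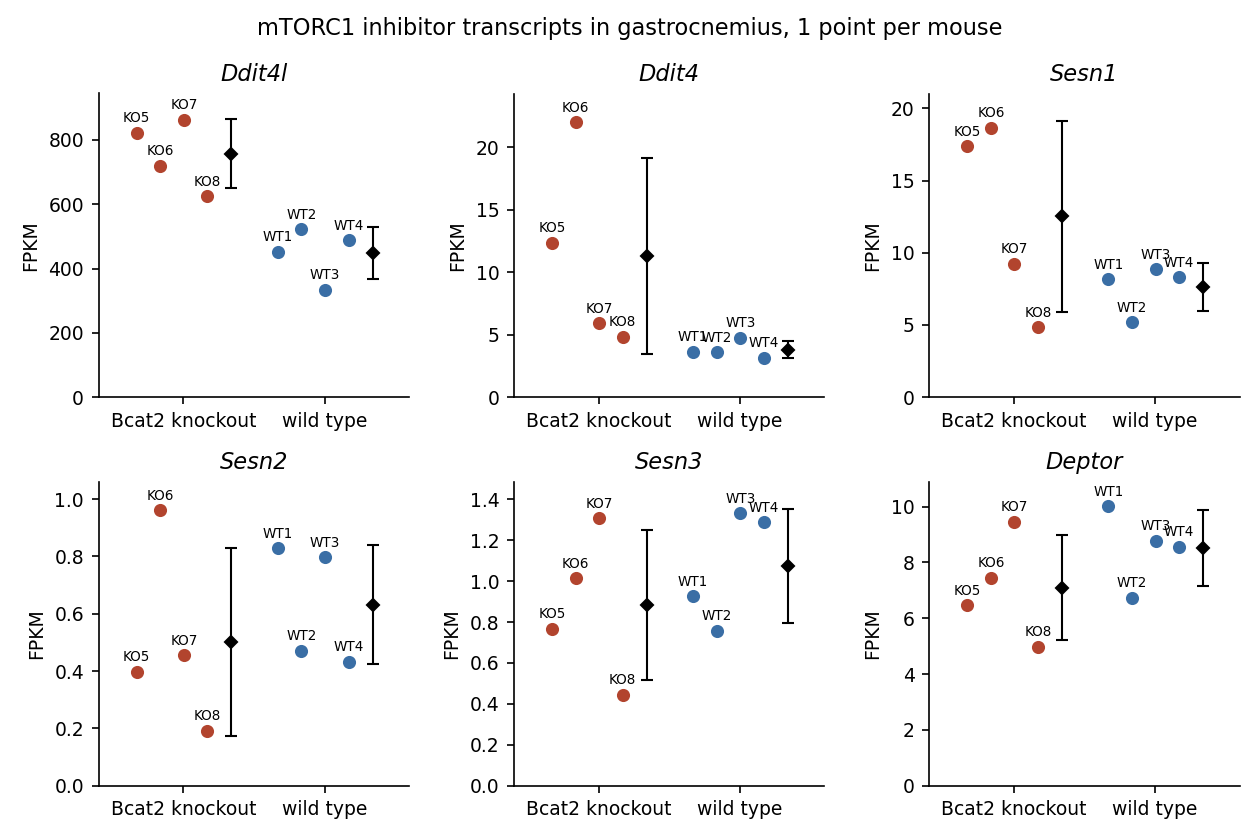
FPKM of the 6 transcripts, 1 point per mouse, Bcat2 knockouts in red on the left and wild type in blue on the right; black diamonds and bars are mean and SD (n = 4 each), and each panel has its own axis from 0. Ddit4l and Ddit4 are higher in all 4 knockouts, with KO5 and KO6 far above KO7 and KO8 for Ddit4 and Sesn1.

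Its paralog Ddit4, the REDD1 gene that stress, glucocorticoids and fasting are known to induce in muscle, also lay higher in each knockout, but with a different pattern. Ddit4 (ENSMUSG00000020108, chromosome 10, 59949675 to 59951770) read 12.4, 22.0, 5.95 and 4.85 FPKM in KO5 to KO8, against 3.64, 3.61, 4.77 and 3.16 FPKM in WT1 to WT4. KO5 and KO6 stood well above every other mouse, while KO8 exceeded WT3 only narrowly, 4.85 against 4.77 FPKM. The means were 11.3 ± 7.87 FPKM in knockouts and 3.79 ± 0.685 FPKM in wild type (SD, n = 4 each), a ratio of 2.98. The knockout SD was 69.7% of its mean, against 18.0% in wild type. The difference on the log2(FPKM + 1) scale was 1.15 (SE 0.40, 95% interval 0.24 to 2.06), higher in 4 of 4 knockouts, but Ddit4 did not pass the threshold of 0.05 over all genes (limma adjusted p = 0.48). The exact permutation test gave p = 0.0286 (2-sided), the smallest that 4 against 4 mice allow. It carries no adjustment for the 5 members tested or for their choice with earlier results known. Any gene whose groups do not overlap reaches that value. Such genes made up 2.08% of those tested with higher and 4.68% with lower knockout values. By limma's adjusted p 0.027% of the tested genes were called, 0.00899% with higher and 0.018% with lower knockout values. Before adjustment 2.99% of them passed 0.05 with higher knockout values, Ddit4 included (limma adjusted p = 0.48, unadjusted p = 0.0192). Without KO6 the mean of the other knockouts was 7.73 FPKM and the difference 0.78. Without both KO6 and WT1 the difference was 0.77, smaller by over 1.5 times. KO6 was also the mouse with raised keratinocyte and, among knockouts, adipocyte markers. Adipoq, a defining adipocyte marker, read 49.9, 311, 23.3 and 27.6 FPKM in KO5 to KO8, against 674 FPKM in WT1 and 4.49 to 15.4 FPKM in the other wild-type mice. The part of these markers in the Ddit4 values was not tested. In the authors' deposited table Ddit4 carries both of their flags, for p under 0.05 (carried by 20.2% of the tested genes) and for p under 0.001 (10.8%). The sources used here do not name the test behind those flags.

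Ddit4l made up most of the REDD transcript in every mouse. The ratio of Ddit4l to Ddit4 FPKM was 66.5, 32.7, 145 and 129 in KO5 to KO8, against 124, 145, 70.2 and 155 in WT1 to WT4. These ranges overlapped, with the lowest ratios in KO6 and KO5. Ddit4l alone made up 93.5% to 97.6% of the summed FPKM of the 6 transcripts in knockouts and 93.2% to 96.9% in wild type. The sum was 790 ± 112 FPKM in knockouts and 471 ± 78.8 FPKM in wild type (SD, n = 4 each).

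Sesn1 was the main sestrin of this muscle, and its genotypes overlapped. Sesn1 (ENSMUSG00000038332, chromosome 10, 41810574 to 41908424) read 17.4, 18.7, 9.24 and 4.86 FPKM in KO5 to KO8, against 8.18, 5.18, 8.85 and 8.31 FPKM in WT1 to WT4. KO5 and KO6 were again the highest, KO7 lay just above the wild-type range and KO8 was the lowest of all 8 mice. The means were 12.5 ± 6.60 FPKM in knockouts and 7.63 ± 1.66 FPKM in wild type (SD, n = 4 each), a ratio of 1.64. That difference was within the spread between mice, at 0.51 on the log2(FPKM + 1) scale (SE 0.38, 95% interval -0.35 to 1.38, limma adjusted p = 0.585, exact permutation p = 0.257, 2-sided). It was higher in 3 of 4 knockouts than in every wild-type mouse. Leaving out a single mouse gave 0.28 (without KO6) to 0.86 (without KO8), so the size of the Sesn1 difference hung on single knockouts. Without KO5 it was 0.31, without WT2 0.36, and without both KO6 and WT1 0.32.

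Sesn2, which encodes a leucine-binding sestrin, and Sesn3, a FoxO target in muscle, were barely expressed and showed no difference beyond the spread. Sesn2 (ENSMUSG00000028893, chromosome 4, 132492032 to 132510501) read 0.397, 0.961, 0.456 and 0.192 FPKM in KO5 to KO8, against 0.828, 0.472, 0.797 and 0.432 FPKM in WT1 to WT4. Its groups overlapped, with KO6 highest and KO8 lowest of all mice (exact permutation p = 0.543, 2-sided, difference -0.14 on the log2(FPKM + 1) scale). Without both KO6 and WT1 the Sesn2 difference was -0.21. Sesn3 (ENSMUSG00000032009, chromosome 9, 14276301 to 14326138) read 0.768, 1.01, 1.31 and 0.445 FPKM in KO5 to KO8, against 0.927, 0.758, 1.33 and 1.29 FPKM in WT1 to WT4. KO8 was the lowest mouse and the other knockouts lay within the wild-type range (exact permutation p = 0.486, 2-sided, difference -0.15). Both had a mean under 1 FPKM over the 8 mice, 0.567 FPKM for Sesn2 and 0.980 FPKM for Sesn3, so they were not among the genes tested together. A difference in these transcripts may not be detectable at such low values. Sesn1 supplied 84.0% to 93.7% of the summed sestrin FPKM in knockouts and 80.6% to 82.9% in wild type. The rest of each sum came from Sesn2 and Sesn3 at these low values, so nothing is read from the difference in share. In KO8 all 3 sestrins were the lowest of the 8 mice. KO8 was also the mouse whose median gene lay lowest, at -0.351 on the log2 scale against the 8-mouse mean, and from -0.0713 to 0.163 in the other 7. The part of that offset in the sestrin values of KO8 was not tested.

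Deptor, which binds mTOR directly and is known to be degraded when mTORC1 is active, did not differ beyond the spread. Deptor (ENSMUSG00000022419, chromosome 15, 55112317 to 55259271) read 6.46, 7.45, 9.46 and 4.98 FPKM in KO5 to KO8, against 10.0, 6.74, 8.78 and 8.56 FPKM in WT1 to WT4. The groups overlapped, with KO5 and KO8 below every wild-type mouse and WT1 highest. The means were 7.09 ± 1.88 FPKM in knockouts and 8.52 ± 1.35 FPKM in wild type (SD, n = 4 each). The difference was -0.25 on the log2(FPKM + 1) scale (SE 0.19, 95% interval -0.70 to 0.19, limma adjusted p = 0.598), or -0.14 relative to the median gene, and the exact permutation p was 0.286 (2-sided). It ran from -0.39 without KO7 to -0.12 without KO8, and was -0.12 with median-ratio scaling.

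**Figure D2:**
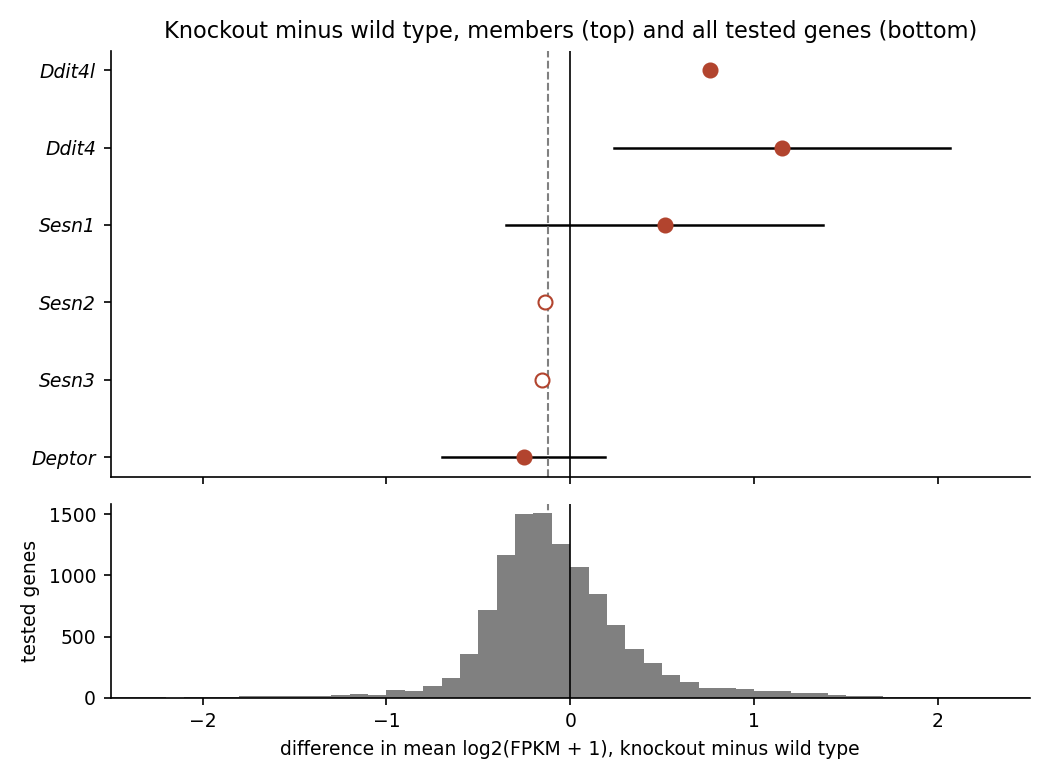
Top: difference in mean log2(FPKM + 1), knockout minus wild type, of the 6 transcripts, with 95% limma intervals for the tested ones; Ddit4l is drawn without an interval because it was chosen for this difference, and open circles are the 2 genes under a mean of 1 FPKM. Bottom: the same difference for 11079 of 11118 tested genes (39 lie outside the axis), with the median of all tested genes dashed; Ddit4 at 1.15 and Ddit4l at 0.76 lie in its right tail, and Deptor at -0.25 lies left of the median.

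By level, the 6 transcripts fell into 3 tiers. Ddit4l, at a mean of 603 FPKM over the 8 mice, exceeded Sesn1, at 10.1 FPKM, in 8 of 8 mice, with no overlap between their ranges. Sesn1, Deptor (7.80 FPKM) and Ddit4 (7.54 FPKM) overlapped as neighbours. Sesn1 exceeded Deptor in 3 of 8 mice, namely KO5, KO6 and WT3, and Deptor exceeded Ddit4 in 6 of 8. Ddit4 exceeded Sesn3 in 8 of 8 mice without overlap. Sesn3 and Sesn2 overlapped in range, although Sesn3 was the higher in 8 of 8 mice. No stretch of 50 bases, the read length, was shared between transcripts of any 2 members in the GENCODE annotation. The share of such stretches found in transcripts of other genes was 0.175% for Ddit4l, 0.399% for Sesn3 and 3.78% for Deptor, and 0 for Ddit4, Sesn1 and Sesn2. In that annotation Deptor overlaps the opposite-strand gene Gm9920, which the table lists at 0 in every mouse. Sesn2 overlaps Gm12981 on its own strand, listed at 0 in all mice but WT1 and WT2, where it read 0.121 and 0.127 FPKM. Sesn1 overlaps 9930024M15Rik on its own strand, for which the table has no row under that name. Reads shared with it could therefore not be told apart from those of Sesn1.

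Across mice, Ddit4 and Sesn1 varied alike and Ddit4l did not follow them closely. Over the 8 mice the Pearson correlation of log2(FPKM + 1) was 0.849 between Ddit4 and Sesn1, 0.594 between Ddit4 and Ddit4l, and 0.42 between Ddit4l and Sesn1. Sesn3 and Deptor had a correlation of 0.849. These are descriptions over the same 8 libraries, whose genotype and depth the points share. As deviations from the 8-mouse mean, less that of the median gene, Ddit4 stood at 0.94, 1.55, 0.03 and 0.07 in KO5 to KO8, against -0.74 to -0.46 in wild type. Sesn1 stood at 0.88 and 0.81 in KO5 and KO6, and at 0.07 and -0.44 in KO7 and KO8, against -0.64 to -0.10 in wild type. Ddit4l was instead highest in KO7, at 0.64, and lowest among knockouts in KO6, at 0.17, against -0.95 to -0.07 in wild type.

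The genes closest in pattern, out of 9983 compared, differed between the members. For Ddit4l they were Suds3, a subunit of the Sin3 corepressor complex (r = 0.948 over 8 mice), Cenpw, a kinetochore protein (0.944), and Lysmd3 (0.933). Suds3 averaged 51.7 ± 2.41 FPKM in knockouts, against 40.4 ± 4.13 FPKM in wild-type muscle (SD, n = 4 each). Suds3 was picked for its likeness to Ddit4l, itself chosen for its genotype difference, so nothing is read from these means. With genotype means taken out the 3 correlations with Ddit4l were 0.789, 0.871 and 0.688. For Ddit4 they were Atp6v0a4, a subunit of the vacuolar proton pump (0.967), Slc43a1, the neutral amino acid transporter LAT3 (0.962), and Defb14, a beta-defensin (0.961). Slc43a1 read 13.3, 13.2, 7.03 and 6.30 FPKM in KO5 to KO8, against 6.08, 6.01, 7.06 and 5.41 FPKM in WT1 to WT4, so it too was highest in KO5 and KO6. Defb14 was listed at 0 in all mice but KO5 and KO6, where it read 3.44 and 12.8 FPKM. For Sesn1 they were Mt2, a metallothionein (0.974), Fgl2 (0.972) and Pnrc1 (0.971). Mt2 read 53.3, 60.4, 18.7 and 8.45 FPKM in KO5 to KO8, against 23.1, 9.47, 14.4 and 16.5 FPKM in WT1 to WT4. For Deptor they were Snapc1 (0.981), Fkbp9 (0.961) and B4galt5 (0.958).

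**Figure D3:**
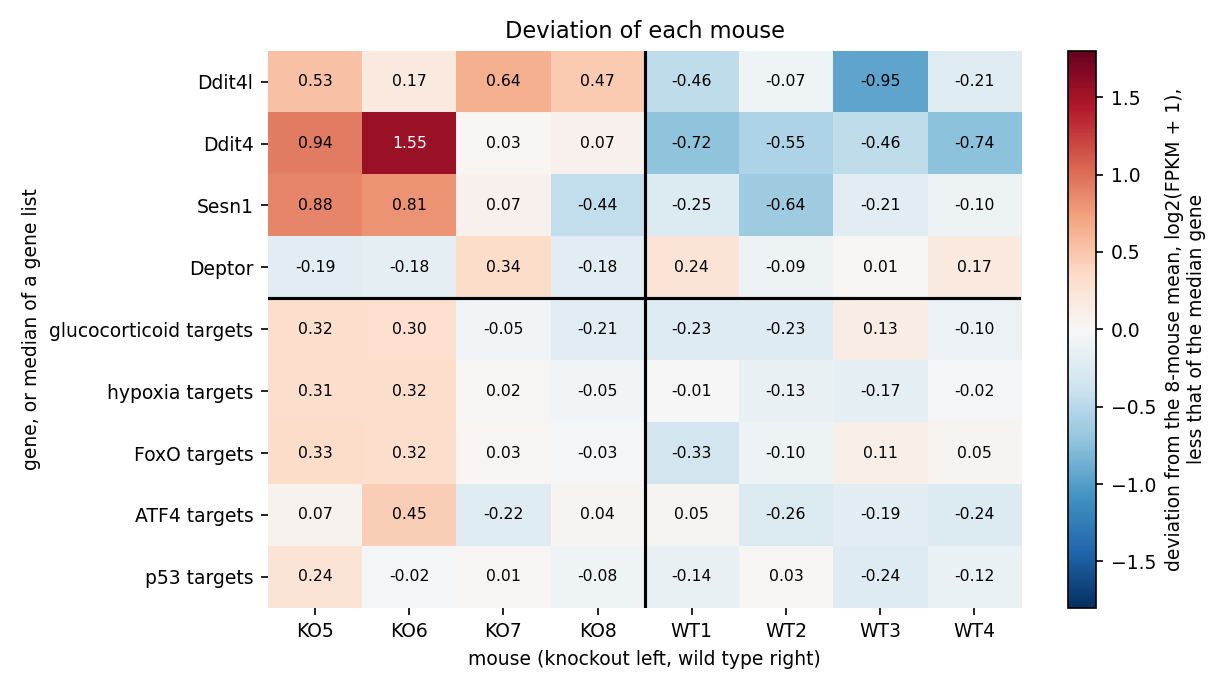
Deviation of each mouse from the 8-mouse mean in log2(FPKM + 1), less that of the median gene, for 4 transcripts (top) and for the median of 5 lists of genes under regulators known to act on them (bottom); knockouts are left of the line and wild type right. KO5 and KO6 carry the high values of Ddit4, Sesn1 and the glucocorticoid, hypoxia and FoxO lists, whereas Ddit4l is highest in KO7. Ddit4 and Ddit4l are both above their 8-mouse mean in all 4 knockouts. The lists also hold the genes of the regulators themselves.

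The same 2 knockouts, KO5 and KO6, stood highest for several lists of genes under regulators known to act on Ddit4 or the sestrins. Each list, called targets for short, also held genes of the regulators themselves, and its counts and medians include them. These were Nr3c1 (glucocorticoid), Hif1a and Epas1 (hypoxia), Foxo1, Foxo3 and Foxo4 (FoxO), Atf4 (ATF4) and Trp53 (p53). Glucocorticoid targets had median deviations of 0.32, 0.30, -0.05 and -0.21 in KO5 to KO8, against -0.23 to 0.13 in wild type. Of the 14 tested 0 passed the threshold in either direction by limma. Cebpd, which encodes the C/EBP delta transcription factor, was the only one that had higher knockout values at an unadjusted p under 0.05, and 0 had lower ones. Cebpd read 46.1, 32.7, 9.16 and 10.6 FPKM in KO5 to KO8, against 5.97, 5.59, 6.00 and 5.21 FPKM in WT1 to WT4 (limma adjusted p = 0.48). The list median was 0.16 above the median of all genes, and 0.08 without KO6 and WT1. Hypoxia targets had a median deviation of 0.31 and 0.32 in KO5 and KO6 and 0.02 and -0.05 in KO7 and KO8, against -0.17 to -0.01 in wild type. Of the 13 tested 0 passed, while an unadjusted p under 0.05 was reached by 1 with higher and 1 with lower knockout values. Vegfa, an angiogenic growth factor, averaged 23.9 ± 6.48 FPKM in knockouts, against 36.0 ± 7.67 FPKM in wild-type muscle (limma adjusted p = 0.48). As a list, the hypoxia targets had a median that lay 0.27 above all genes, and 0.16 above without KO6 and WT1. FoxO targets stood at 0.33 and 0.32 in KO5 and KO6 and at 0.03 and -0.03 in KO7 and KO8, against -0.33 to 0.11 in wild type. Of the 11 tested 0 passed, and 0 had an unadjusted p under 0.05. The muscle ubiquitin ligase Trim63 averaged 231 ± 138 FPKM in knockouts, against 131 ± 15.9 FPKM in wild-type muscle (limma adjusted p = 0.505). Slow-fibre markers were also highest in KO5, at a sum of 1631 FPKM against 472 to 720 FPKM in the other knockouts and 255 to 1219 FPKM in wild type. The part of these lists in the Ddit4 and Sesn1 values was not tested.

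Targets of ATF4, which is known to induce Ddit4 and Sesn2 when amino acids run short, and of p53, known to induce Sesn1, were less alike between KO5 and KO6. ATF4 targets deviated by 0.07 and 0.45 in KO5 and KO6 and by -0.22 and 0.04 in KO7 and KO8, against -0.26 to 0.05 in wild type. Their median lay 0.30 above all genes and 0.17 above without KO6 and WT1. Of the 15 tested 0 passed and 0 had an unadjusted p under 0.05. Atf4 itself averaged 100.1 ± 26.0 FPKM in knockouts, against 98.3 ± 12.8 FPKM in wild-type muscle, and was chosen after its values were seen. Shmt2, a mitochondrial serine hydroxymethyltransferase, had the smallest p, at 5.82 ± 0.867 FPKM in knockouts, against 7.62 ± 1.99 FPKM in wild-type muscle (limma adjusted p = 0.501). p53 targets deviated by 0.24 and -0.02 in KO5 and KO6 and by 0.01 and -0.08 in KO7 and KO8, against -0.24 to 0.03 in wild type. Of the 14 tested 0 passed, while an unadjusted p under 0.05 was reached by 1 with higher and 1 with lower knockout values, and the list median lay 0.10 above all genes, and 0.17 above without KO6 and WT1. Eda2r, the ectodysplasin A2 receptor, averaged 9.98 ± 5.23 FPKM in knockouts, against 4.45 ± 1.45 FPKM in wild-type muscle (limma adjusted p = 0.48).

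In the machinery on which the inhibitors act, no listed gene passed the threshold. Of 12 tested genes of the mTORC1 core and its substrates 0 passed the threshold in either direction, 0 were higher and 2 lower in knockouts at an unadjusted p under 0.05, and the list median lay 0.06 below that of all genes. An unadjusted p under 0.05 with lower knockout values was reached by 7.33% of the tested genes. Mlst8, an mTOR-binding subunit, averaged 2.30 ± 0.250 FPKM in knockouts, against 3.38 ± 0.712 FPKM in wild-type muscle, with groups that did not overlap (limma adjusted p = 0.48). In the REDD branch, the TSC complex, its kinases and the 14-3-3 proteins that REDD1 is reported to displace from TSC2, 0 of 13 passed, 3 were lower and 0 higher at an unadjusted p under 0.05, and the median lay 0.06 below all genes (0.04 below without KO6 and WT1). Ywhae, which encodes 14-3-3 epsilon, averaged 107 ± 15.4 FPKM in knockouts, against 147 ± 25.1 FPKM in wild-type muscle, without overlap (limma adjusted p = 0.48). In the sestrin branch, the GATOR complexes, the Rag GTPases with their lysosomal anchor and the arginine and leucine sensors, 0 of 19 passed and 0 had an unadjusted p under 0.05, with a median 0.03 above all genes (0.0036 without KO6 and WT1). Gatsl2, which encodes CASTOR2, a GATOR2-binding relative of the arginine sensor CASTOR1, averaged 6.48 ± 1.98 FPKM in knockouts, against 9.09 ± 2.31 FPKM in wild-type muscle (limma adjusted p = 0.487). Among genes of mTORC2 and of DEPTOR turnover 0 of 6 passed and 0 had an unadjusted p under 0.05, with a median 0.06 below all genes. Btrc, a ubiquitin ligase subunit that marks DEPTOR for breakdown, averaged 1.72 ± 0.299 FPKM in knockouts, against 2.67 ± 0.770 FPKM in wild-type muscle, without overlap (limma adjusted p = 0.484). Groups without overlap and with lower knockout values were seen in 4.68% of tested genes. In whole muscle, fewer cells of a type and less RNA per cell cannot be told apart.

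**Figure D4:**
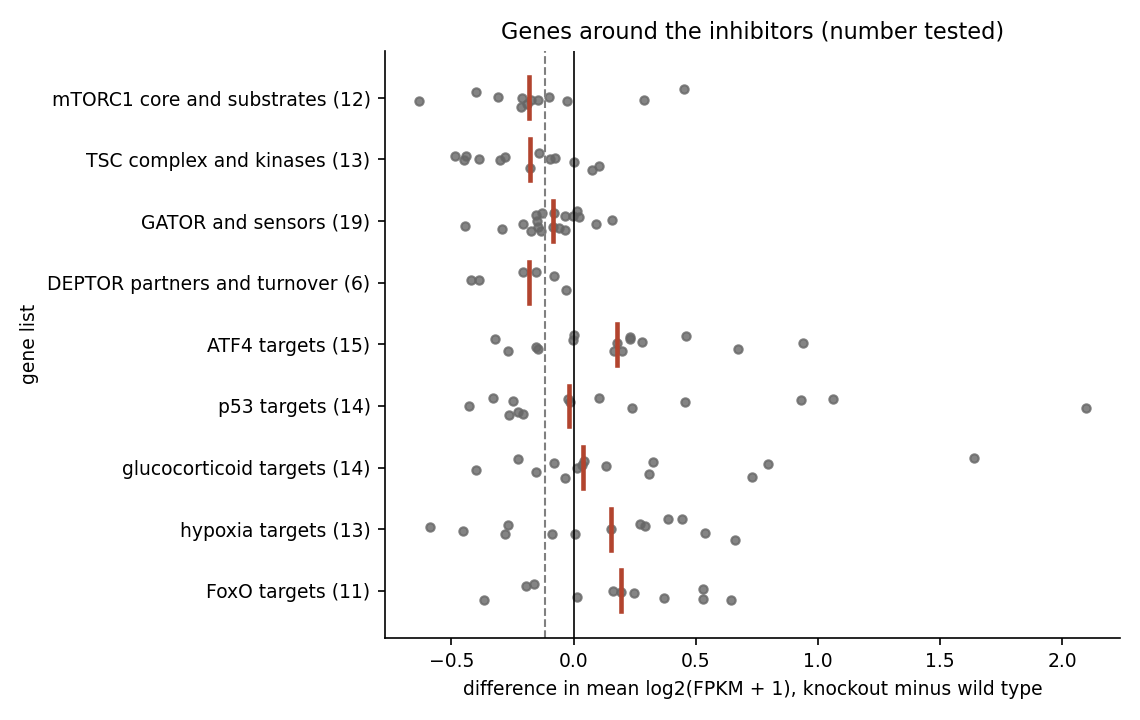
Difference in mean log2(FPKM + 1), knockout minus wild type, of each tested gene in 9 lists (grey points, number tested in brackets), with the list median in red and the median of all tested genes dashed. The lists of mTORC1, TSC, GATOR and DEPTOR partners centre near the all-gene median, from 0.06 below to 0.03 above it, and the regulator lists lie 0.10 to 0.31 above it.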

How the data were processed

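RNA libraries (TruSeq kit) from 8 gastrocnemius muscles were sequenced single-end over 50 cycles. TopHat 2.0.9 placed the reads on mm10, and the deposited FPKM were computed by Cufflinks 2.0.2 from reads that mapped uniquely, per the labels' protocols. Cufflinks 2.2.1 is the version in the submitters' processing notes. No source used here gives the annotation or the strand setting. The deposited table holds FPKM per mouse in 39009 rows, and the authors' flags of 0 or 1 for their own p-value and the authors' SE of the FPKM, both other quantities than FPKM. FPKM carry no read totals, so precision rests on the spread between mice. Relative depth was the inverse of the modal FPKM ratio to WT2, over genes above 0 and under 0.3 FPKM in both libraries. The mode was found on the log2 scale (kernel SD 0.05).

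The 11118 genes with a mean of at least 1 FPKM were tested with limma-trend on log2(FPKM + 1), 2-sided, Benjamini-Hochberg adjusted over all of them, threshold 0.05, with genotype as the only term. The log2(FPKM + 1) scale understates changes of low genes. For 5 members an exact permutation test over the 70 labelled splits was run on the same scale. Lists are described by counts and medians only. The rule for named genes beyond the members took Bcat2, the gene of smallest p in each list and the 3 genes most like each member, without genes that have only a Riken, Gm, LOC or accession name. Atf4, Cdkn1a, Fbxo32, the markers Myh1, Krt14 and Adipoq and the overlapping genes were named outside it. The members and lists were chosen with earlier results of these data known. Promoters are RefSeq sequences on GRCm38.p6, the build called mm10. The fit was first checked on simulated data. Fits ran in R 4.3.3 with limma 3.58.1, and all else in Python 3.11.15 with scipy 1.17.1, pandas 2.3.3 and matplotlib 3.10.9.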

Additional observations from a re-analysis of the deposited data

How the results depend on the processing

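Each of the 6 transcripts kept the sign of its difference under every alternative run (17 for Ddit4, Ddit4l, Sesn1 and Deptor, 16 for Sesn2 and Sesn3, which a filter at a mean of 5 FPKM removes). None of the 5 tested ones passed the threshold under any of them by limma. For Sesn2 and Sesn3, which lay under the filter, each of these limma runs was made without it. Their main p came from the permutation test. The alternatives were pseudocounts of 0.1 and 0.5, no filter or a mean of 5 FPKM, median-ratio and quantile scaling, summed rows, array weights, each mouse left out, and KO6 and WT1 left out together. Over all of them the log2 difference ran from 0.77 to 1.44 for Ddit4 (limma adjusted p from 0.378 to 0.873), from 0.57 to 0.91 for Ddit4l, from 0.28 to 0.86 for Sesn1, from -0.39 to -0.03 for Sesn2, from -0.31 to -0.03 for Sesn3 and from -0.39 to -0.12 for Deptor. Ddit4l was lowest with quantile scaling and highest with median-ratio scaling. Ddit4l and Ddit4 had groups that did not overlap, so other pseudocounts, other filters or left-out mice could not have changed their sign. The count of genes called over the whole table, 3, became 10 without KO6 and WT1 and ran from 3 to 8 with single mice left out (5 without KO6 or WT4, 8 without KO7, WT1 or WT2), and all of these calls included the 3 genes; the cause was not tested. No paired analysis was possible because the knockout columns carry no replicate number of the labels.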

Other observations

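Cdkn1a and Fbxo32, list members chosen after their values were seen, shared the split among the knockouts. Cdkn1a, of the p53 list, which encodes the cell-cycle inhibitor p21, read 69.3, 42.3, 10.6 and 4.29 FPKM in KO5 to KO8, against 13.3, 8.22, 9.33 and 6.18 FPKM in WT1 to WT4 (limma adjusted p = 0.561). Fbxo32, of the FoxO list, which encodes the muscle ubiquitin ligase atrogin-1, read 179, 88.0, 51.6 and 22.7 FPKM in KO5 to KO8, against 25.8, 41.7, 66.3 and 58.8 FPKM in WT1 to WT4 (limma adjusted p = 0.676). Both were highest in KO5 and next highest in KO6, and both were lower in KO8 than in every wild-type mouse.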
